A study of Rattus norvegicus with 30 samples.

Results

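Genes of the unfolded protein response and the integrated stress response were followed through changes of medium osmolality in primary cultured inner medullary collecting duct cells of the rat kidney. The members were chosen by gene symbol: 38 genes were listed, of which the brightest single-symbol probe set on average stood for each gene, and 33 of the 38 were measured among 14506 genes. Sesn2, Edem1, Derl2, Ero1b and Ern1 had no probe set under their own symbol alone. The measured members were kept in 3 arms: 9 genes of the ATF4 arm, 21 genes of the ATF6/XBP1 arm and 3 sensors and transducers (Eif2ak3, Atf6 and Xbp1). Total RNA of the cultures was hybridised to 30 Affymetrix Rat Gene 1.0 ST arrays, 1 per sample, in 10 groups of 3.

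Cells of 3 groups were kept at 300, 600 or 900 mosmol/kg and are called steady here. Cells kept at 300 mosmol/kg were moved to 600 for 3, 12, 24 or 48 h, which is called the lower step. Cells kept at 600 mosmol/kg were moved to 900 for 12 or 24 h, called the upper step, and cells kept at 900 were returned to 300 for 24 h. The treatment field of every sample, the steady ones included, names 5 µM cyclosporin A, a calcineurin inhibitor, while no title mentions it, so all groups are labelled alike in this respect and its part in any value cannot be told apart. The labels name neither strain, age nor sex, and separate cultures or animals are not stated for the replicates. P-values therefore measure the spread among the arrays only, and that spread may be technical. Replicates of the upper step and of the return are numbered 1, 2 and 9, those of the other groups 1, 2 and 3.

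The unfolded protein response senses misfolded protein in the endoplasmic reticulum (ER) through the kinase PERK (Eif2ak3), the membrane-bound factor ATF6 and the nuclease IRE1, which splices Xbp1 messenger RNA. PERK and the other kinases of the integrated stress response phosphorylate the initiation factor eIF2, which lowers general translation and favours synthesis of ATF4, a factor that drives genes of amino acid supply and of stress feedback. ATF6 and spliced XBP1 drive chaperones, disulfide isomerases and the machinery that removes misfolded protein. Cells of the inner medulla meet high and changing osmolality in the body, and shifts of osmolality are known to bring on both responses in cultured cells.

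Promoter windows are shown for some of the members that held a searched motif and whose values are described in what follows, chosen for the match and not for the size of their changes. The promoters of Sdf2l1, Ppp1r15a, Psat1 and Phgdh, whose levels ranged more widely, held none of the motifs searched. RefSeq sequences of assembly GRCr8 (250 bases before to 50 after the start) were found for 26 of the 33 members. None was matched for Atf3, Pdia3, Pdia6, Manf, Derl1, Ero1a and Atf6. Trib3 and Chac1 of the ATF4 arm held the C/EBP-ATF response element (CARE, searched as TGATGNAA). Trib3 separated the upper from the lower step at 12 and 24 h, and Chac1 at 12 h only. Asns and Atf4 separated the steps at both times and held none of the motifs searched. Xbp1, Hspa5 and Creld2 held the ER stress response element (ERSE, searched as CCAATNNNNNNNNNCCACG). Herpud1 held a CARE and an ERSE-II (ATTGGNCCACG). Hyou1 held a UPRE (TGACGTGG) that overlaps the first of its ERSE-II matches. Each line gives the gene, then the bases 5′ to 3′ along the strand of the gene, with the matches in capitals, which stand in the reverse orientation where the match lay on the other strand:
Trib3: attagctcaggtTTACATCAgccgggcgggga
Chac1: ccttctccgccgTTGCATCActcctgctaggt
Herpud1: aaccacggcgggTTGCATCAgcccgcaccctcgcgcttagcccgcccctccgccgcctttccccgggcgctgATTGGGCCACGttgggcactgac
Xbp1: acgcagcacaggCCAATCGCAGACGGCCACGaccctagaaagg
Hspa5: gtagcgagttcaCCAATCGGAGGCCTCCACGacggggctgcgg
Creld2: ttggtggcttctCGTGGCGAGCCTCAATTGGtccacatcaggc
Hyou1: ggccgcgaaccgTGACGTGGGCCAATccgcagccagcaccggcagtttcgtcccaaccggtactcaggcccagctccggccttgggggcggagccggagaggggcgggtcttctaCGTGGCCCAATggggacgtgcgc

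The windows lie at chr3:161275535-161275566 (minus strand) for Trib3, chr3:126795952-126795983 (plus) for Chac1, chr19:10614809-10614903 (minus) for Herpud1 and chr14:84604546-84604588 (plus) for Xbp1. Those of Hspa5, Creld2 and Hyou1 lie at chr3:38452961-38453003, chr7:121789227-121789269 and chr8:53602679-53602816, all on the plus strand, and every window lies upstream of its gene's start. Searched on both strands, the ERSE was found in 7 of the 16 ATF6/XBP1-arm promoters, in that of Xbp1 and in none of the 8 ATF4-arm promoters, against 0.0765% of 27457 rat promoters of the same length. The ERSE-II was found in 3 of 16 ATF6/XBP1-arm promoters (0.0546% of all) and the UPRE in 1 (0.637% of all). The CARE was found in 2 of 8 ATF4-arm promoters and 1 of 16 ATF6/XBP1-arm promoters (3.82% of all). The arms were listed as genes of these factors, so the shares describe the lists and are no test of them. A match describes the letters and is neither a bound site nor a cause, and no match says only that these letters are not in this window.

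Array values are log2 values of a robust multi-array average (RMA), so a difference of 1 is a 2-fold change. Correlations within groups lay between 0.991 and 0.998, and all 30 arrays were nearest to an array of their own group. In 2 groups 1 array stood apart: replicate 9 at 12 h of the upper step, with a median absolute difference of 0.187 from the mean of its partners, which differed from each other by 0.0971, and replicate 3 at 3 h of the lower step (0.183 against 0.122). Results of these groups are given without them where that matters. Collecting duct principal cell markers were low at 300 mosmol/kg and high at 600 and 900: their mean level was 5.78 to 5.95 in the steady 300 arrays and 9.40 to 9.43 in the steady 900 arrays, with 9 of 11 higher. Markers of other cells moved with osmolality as well: mean levels went from 8.66 to 8.81 at steady 300 to 6.32 to 6.51 at steady 900 for macrophages and leukocytes (8 of 8 lower), and from 8.84 to 8.86 to 6.46 to 6.50 for fibroblasts (6 of 8 lower, Lum dim in all groups). In such bulk samples, fewer cells of a type and less RNA per cell cannot be told apart, and the part of these markers in the results on stress genes was not tested.

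A difference among the 10 groups passed the threshold (limma's moderated F test, Benjamini-Hochberg adjusted p of 0.05) for 33 of 33 members, against 73.7% of all genes. The range between a gene's lowest and highest group mean was 1.13 (log2) at the median of the ATF4 arm, 0.59 in the ATF6/XBP1 arm, 0.52 in the sensors and transducers, and 0.66 over all genes. Sdf2l1, a partner of the ER chaperone BiP, had the widest range, 2.24 or 4.71-fold, from 12 h of the upper step to the return. It was followed by Atf3 (1.97), Ppp1r15a (1.94), Psat1 (1.88) and Phgdh (1.82), all of the ATF4 arm. Of the 16 comparisons of 2 groups, Trib3 passed in 12 and Atf6 in 1.

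**Figure D1:**
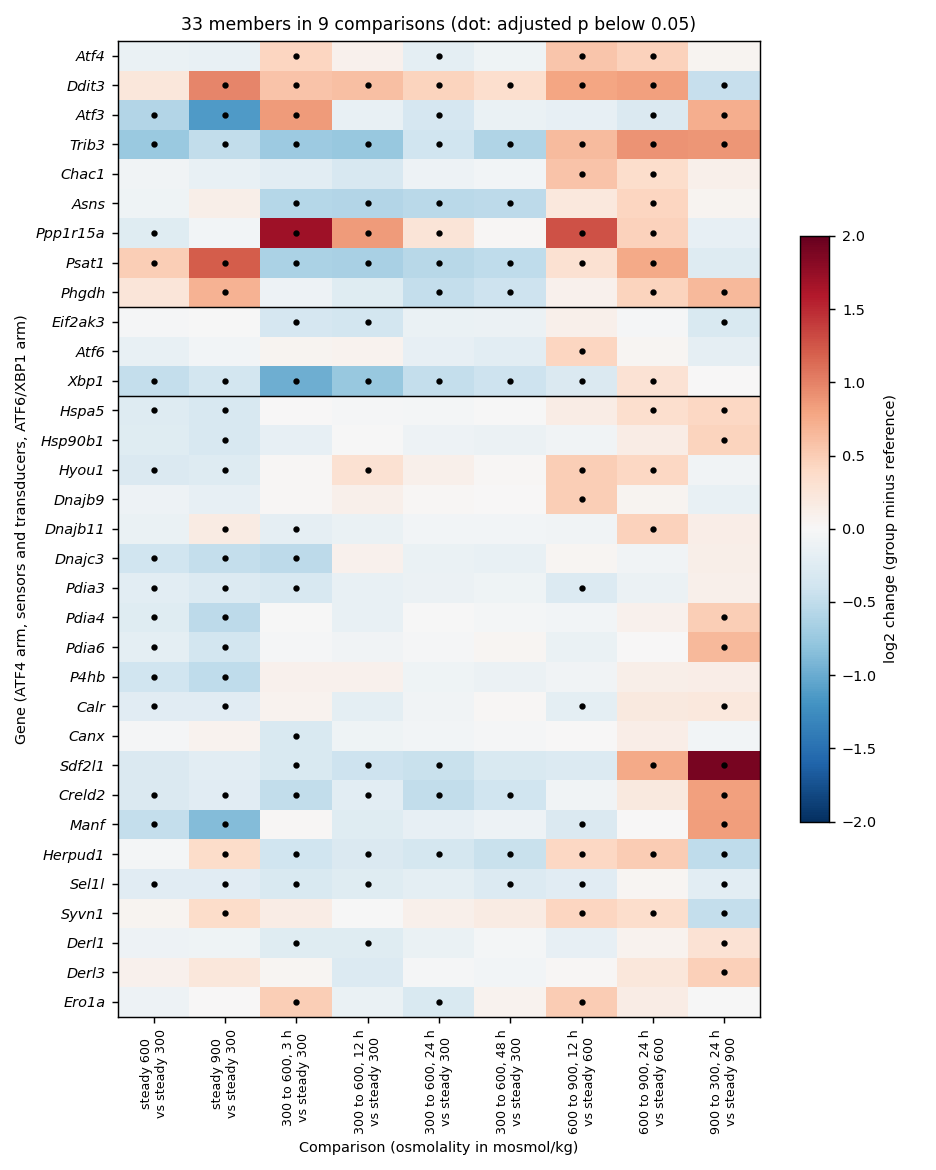
Log2 change of the 33 measured members (rows, ATF4 arm at the top, sensors and transducers between the lines, ATF6/XBP1 arm below) in 9 comparisons of a group with its starting condition (columns), red for higher and blue for lower, with a dot where limma's adjusted p was below 0.05. Sdf2l1 after the return to 300 mosmol/kg has the deepest red of the lower block (1.90), and Ppp1r15a at 3 h of the lower step the deepest of the upper block (1.70).

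The steady groups ask how the levels differ between cultures kept at different osmolality. Of the 21 ATF6/XBP1-arm members, 11 were lower at 600 and 12 at 900 than at 300 mosmol/kg, Manf and Hspa5 among them, and 3 were higher at 900. In the ATF4 arm Ddit3, Psat1 and Phgdh were higher at 900 and Atf3 and Trib3 lower. At 600 against 300 mosmol/kg, 1 member was higher and 15 lower (background 13.7% of all genes higher and 13.4% lower). At 900 against 300, 6 were higher and 15 lower (20.2% and 22.3%), and at 900 against 600, 6 were higher and 3 lower (11.3% and 12.9%). Both of the first comparisons share the steady 300 arrays.

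Among the transducers, Xbp1 measured 10.99, 10.93 and 11.00 at steady 300, 10.50, 10.54 and 10.46 at steady 600, and 10.70, 10.59 and 10.51 at steady 900. All arrays at 600 and 900 lay below all arrays at 300. The fall was 0.47 ± 0.08 (SE, n = 3 per group; limma adjusted p = 4.82e-05) at 600 and 0.37 ± 0.08 (adjusted p = 0.000486) at 900. Eif2ak3 and Atf6 passed in none of the steady comparisons.

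In the ATF4 arm, Atf3, a stress-induced repressor and activator of transcription, stepped down with osmolality. It measured 8.94, 8.91 and 8.95 at 300, 8.34, 8.38 and 8.31 at 600, and 7.87, 7.80 and 7.76 at 900. No array of a group overlapped another group, and the level at 900 was 2.18-fold below that at 300 (log2 change -1.13 ± 0.07, limma adjusted p = 1.11e-13). Trib3, a pseudokinase that restrains ATF4 signalling, was 1.67-fold lower at 600 and 1.41-fold lower at 900.

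Ddit3, which encodes the pro-apoptotic factor CHOP, measured 6.65, 6.61 and 6.65 at 300, 6.83, 6.82 and 6.94 at 600, and 7.61, 7.71 and 7.53 at 900. The 900 arrays lay above all others of the steady groups, 1.97-fold above 300 (0.98 ± 0.10, limma adjusted p = 8.76e-10), whereas the difference of 0.23 at 600 did not pass (adjusted p = 0.0832). Psat1, an enzyme of serine synthesis, measured 9.22, 9.38 and 9.46 at 300, 9.91, 9.76 and 9.85 at 600, and 10.55, 10.57 and 10.58 at 900. Its groups did not overlap, and it was 1.40-fold higher at 600 and 2.32-fold higher at 900. Phgdh, which catalyses the first step of the same pathway, was 1.61-fold higher at 900. Atf4 itself passed in no steady comparison.

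In the ATF6/XBP1 arm the median change was -0.23 at 600 and -0.23 at 900 (all genes 0.01 and 0.00), and at 900 against 600, 3 members were higher and 2 lower. Manf, an ER-resident and secreted survival factor, measured 9.84, 9.76 and 9.89 at 300, 9.24, 9.39 and 9.46 at 600, and 8.95, 8.94 and 9.01 at 900. Its groups did not overlap, and it was 1.82-fold lower at 900 than at 300 (limma adjusted p = 3.40e-07). The disulfide isomerase Pdia4 fell by 0.52 ± 0.07, its relative P4hb by 0.50 ± 0.07 and the co-chaperone Dnajc3 by 0.48 ± 0.07. Hspa5, which encodes the master ER chaperone BiP, was 1.20-fold lower at 600 and 1.24-fold lower at 900. The 3 members that were higher at 900 were Syvn1 (0.37 ± 0.11) and Herpud1 (0.36 ± 0.09), both of ER-associated degradation, and the co-chaperone Dnajb11 (0.17 ± 0.06). Without replicate 1 of steady 600, the members called at 600 against 300 numbered 10 instead of 16, with 6 instead of 11 in the ATF6/XBP1 arm.

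Other genes of the pathway, from lists chosen with earlier results known, were lower at 900 than at 300 in part: of 14 other ER folding genes 5 were lower and 1 higher, and 11 of 16 genes of ER translocation and signal peptidase were lower and 0 higher, with Sec61b, a subunit of the translocation channel, at -0.67 ± 0.12. Creb3l1, an ER-anchored transcription factor, was lower by 3.23 ± 0.17 on the log2 scale. The fibroblast and macrophage markers named above were lower in the same comparison. Of 18 other ATF4 target genes 3 were higher and 9 lower, among them Gdf15 at 1.80 ± 0.15, Nupr1 at 1.68 ± 0.07 and Vldlr at -1.67 ± 0.09.

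**Figure D2:**
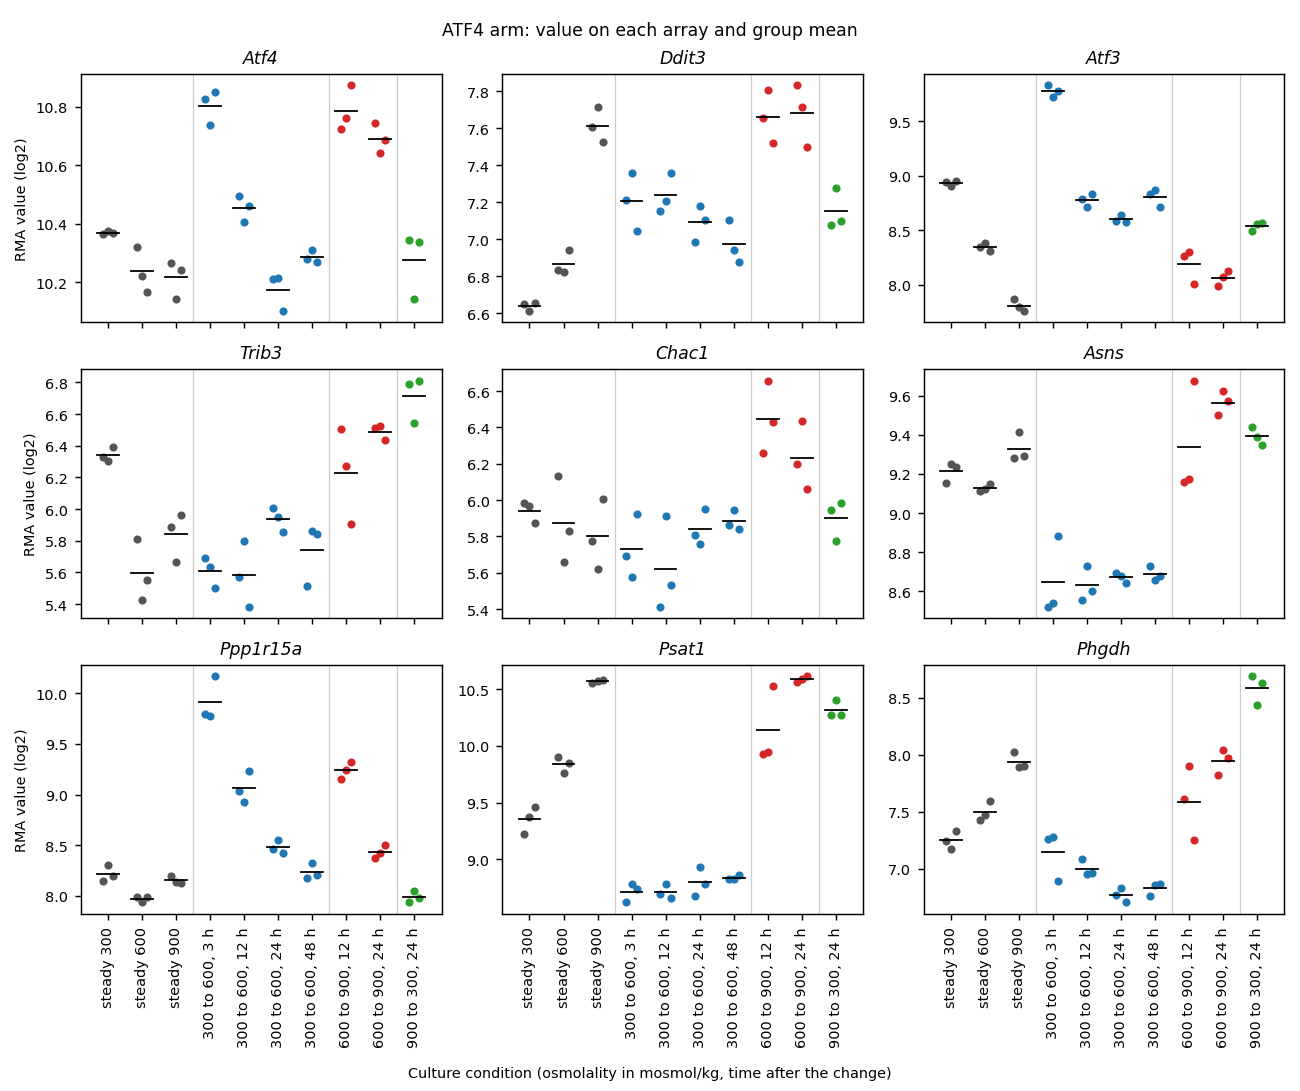
RMA value (log2) of the 9 ATF4-arm genes on each of the 30 arrays (points, coloured by steady, lower step, upper step and return) with the group mean (bar), over the 10 conditions in mosmol/kg. Ppp1r15a and Atf3 peak at 3 h of the lower step, Asns and Psat1 are low in all 4 lower-step groups, and replicate 9 at 12 h of the upper step lies above its partners for Asns and Psat1.

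The lower step asks how cells kept at 300 mosmol/kg respond to 600 over time. At 3 h the feedback phosphatase gene Ppp1r15a, Atf3, Ddit3 and Atf4 rose, while the amino acid genes Asns and Psat1, Trib3 and the transducers Xbp1 and Eif2ak3 fell. Of the genes that rose, Ddit3 was still called higher at 48 h, and of those that fell, Xbp1, Trib3, Asns and Psat1 were still called lower. In all, 5 members were higher and 14 lower at 3 h (background 12.1% higher and 29.5% lower), 3 and 10 at 12 h (11.9% and 22.6%), 2 and 11 at 24 h (9.4% and 13%), and 1 and 8 at 48 h (9.57% and 12%). These 4 comparisons share the steady 300 arrays. Markers of other cells called lower numbered 2, 5, 6 and 7 of 8 for fibroblasts at 3, 12, 24 and 48 h, 1, 0, 6 and 6 of 8 for macrophages and leukocytes, and 1, 5, 5 and 3 of 5 for endothelium. Called higher were 1 fibroblast marker at 3 h, 1 macrophage and leukocyte marker at 3 h and at 12 h, and 1 endothelial marker at 48 h. Mean levels of the first and second of these lists at 48 h were 7.49 to 7.67 and 6.94 to 7.05, against 8.84 to 8.86 and 8.66 to 8.81 at steady 300. Their part in these changes was not tested. Without replicate 3 at 3 h, 4 members of the ATF4 arm were higher and 3 lower, as with it, and 1 of the ATF6/XBP1 arm was higher and 7 lower.

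Xbp1 measured 9.87, 9.95 and 10.17 at 3 h, 10.22, 10.23 and 10.19 at 12 h, 10.46, 10.50 and 10.51 at 24 h, and 10.57, 10.64 and 10.48 at 48 h. All 12 values lay below the steady 300 arrays. The decrease was 1.97-fold at 3 h (log2 change -0.98 ± 0.08, limma adjusted p = 5.60e-10), 1.69-fold at 12 h, 1.40-fold at 24 h and 1.33-fold at 48 h. The deposited value covers the gene as a whole and does not give its spliced share. Eif2ak3 was 1.27-fold lower at 3 h and 1.28-fold lower at 12 h, and was not called at 24 or 48 h. The call at 3 h was lost with cyclic loess scaling of the arrays (adjusted p = 0.0660).

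Ppp1r15a encodes GADD34, which brings protein phosphatase 1 to eIF2 and restores translation. It measured 8.15, 8.30 and 8.19 at steady 300, 9.79, 9.78 and 10.17 at 3 h, 9.04, 8.92 and 9.24 at 12 h, 8.46, 8.55 and 8.42 at 24 h, and 8.18, 8.32 and 8.20 at 48 h. The arrays at 3, 12 and 24 h lay above the steady 300 arrays, and those at 48 h overlapped them. The rise was 3.24-fold at 3 h (limma adjusted p = 3.3e-14), 1.80-fold at 12 h and 1.20-fold at 24 h.

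Atf3 measured 9.84, 9.73 and 9.78 at 3 h, above the steady 300 arrays, and 8.79, 8.71 and 8.84 at 12 h, below them. It was 1.80-fold higher at 3 h and then fell 2.00-fold between 3 and 12 h (limma adjusted p = 1.62e-11). Against steady 300 the change of -0.15 at 12 h did not pass (adjusted p = 0.112), whereas at 24 h Atf3 was called lower (-0.33 ± 0.07, adjusted p = 0.00097), and at 48 h the change of -0.13 did not pass. Atf4 measured 10.36, 10.37 and 10.37 at steady 300 and 10.83, 10.74 and 10.85 at 3 h, which was 1.35-fold higher and without overlap. At 24 h it was 1.14-fold lower, a call that was lost when any of the 6 arrays was left out (adjusted p of 0.0638 to 0.182).

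Ddit3 measured 7.21, 7.36 and 7.05 at 3 h, 7.15, 7.21 and 7.36 at 12 h, 6.99, 7.18 and 7.11 at 24 h, and 7.10, 6.94 and 6.88 at 48 h. All 12 values lay above the steady 300 arrays, with changes of 0.57, 0.60, 0.45 and 0.33 in order of time (limma adjusted p = 2.61e-05, 1.16e-05, 0.000647 and 0.0111). Without replicate 1 at 48 h the last did not pass (adjusted p = 0.0847).

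The biosynthetic genes of the ATF4 arm, and with them Trib3, went the other way. Asns, which makes asparagine, measured 9.15, 9.25 and 9.24 at steady 300 and 8.52, 8.54 and 8.88 at 3 h, and it stayed between 8.56 and 8.73 on all later arrays of the step. The arrays of all 4 times lay below the steady 300 arrays and overlapped one another, and the decrease was 1.48-fold at 3 h and 1.44-fold at 48 h. Psat1 fell by 0.64 ± 0.11 at 3 h and by 0.51 ± 0.11 at 48 h. Trib3 fell by 0.73 ± 0.13 at 3 h and by 0.60 ± 0.13 at 48 h. Phgdh was called at 24 h (-0.48 ± 0.12) and at 48 h (-0.42 ± 0.12) and not earlier. In other lists of pathway genes, 12 of 17 aminoacyl-tRNA synthetase genes were lower and 1 higher at 3 h, with Iars1 at -0.63 ± 0.11. Of 18 other ATF4 target genes 10 were lower and 3 higher. Over all genes 29.5% were lower and 12.1% higher at 3 h, and these lists were not rerun under other scalings.

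In the ATF6/XBP1 arm, 9 of 21 members were lower and 1 higher at 3 h, but the direction of this count depended on the scaling: with quantile scaling 5 were lower and 7 higher, and with cyclic loess 3 were lower and 8 higher. The median over the 21 genes was -0.02 as deposited, against -0.04 over all genes, of which 29.5% were lower and 12.1% higher. Lower members included Dnajc3 (-0.53 ± 0.07), Creld2 (-0.50 ± 0.08) and Herpud1 (-0.40 ± 0.09), which were called under every scaling run but with smaller changes: with cyclic loess they were -0.32, -0.30 and -0.20 (adjusted p = 0.0497 for Herpud1). Ero1a, the oxidase that reloads disulfide isomerases, measured 8.54, 8.59 and 8.54 at steady 300 and 8.84, 9.05 and 9.25 at 3 h, without overlap, 1.40-fold higher (limma adjusted p = 4.95e-05). Hspa5 measured 11.98, 11.97 and 11.82 at 3 h, around its steady 300 values of 11.90, 11.92 and 11.94. As deposited the change was 0.01 ± 0.08 and did not pass. Over the alternatives it ran from -0.019 to 0.198, and Hspa5 was called higher with cyclic loess (limma adjusted p = 0.0323).

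At 12 h, 5 of the 21 were lower and 1 higher, Hyou1, the exchange factor of BiP, at 0.31 ± 0.08. Over all genes 22.6% were lower and 11.9% higher at 12 h, 13% and 9.4% at 24 h, and 12% and 9.57% at 48 h. At 24 h 4 were lower, among them Creld2 (-0.49 ± 0.08) and Sdf2l1 (-0.45 ± 0.12, a call lost without replicate 3 at 24 h, adjusted p = 0.0757). At 48 h 3 were lower: Herpud1 (-0.44 ± 0.09), Creld2 (-0.41 ± 0.08) and Sel1l (-0.28 ± 0.07). None was higher at 24 or 48 h.

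Between neighbouring times, 5 members were higher and 5 lower at 12 h against 3 h (background 23.1% higher and 17.8% lower), 3 and 5 at 24 h against 12 h (17.5% and 9.51%), and 1, Ero1a, was higher at 48 h against 24 h (1.88% and 0.917%), a call lost without replicate 1 at 48 h or without replicate 2 or 3 at 24 h (adjusted p up to 0.0718). Dnajc3 rose by 0.62 ± 0.07 from 3 to 12 h. Xbp1 rose by 0.27 ± 0.08 from 12 to 24 h. With cyclic loess the ATF6/XBP1-arm count at 12 h against 3 h turned from 4 higher and 2 lower to 1 higher and 8 lower, and without replicate 2 at 24 h the members called against 12 h numbered 4 instead of 8.

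**Figure D3:**
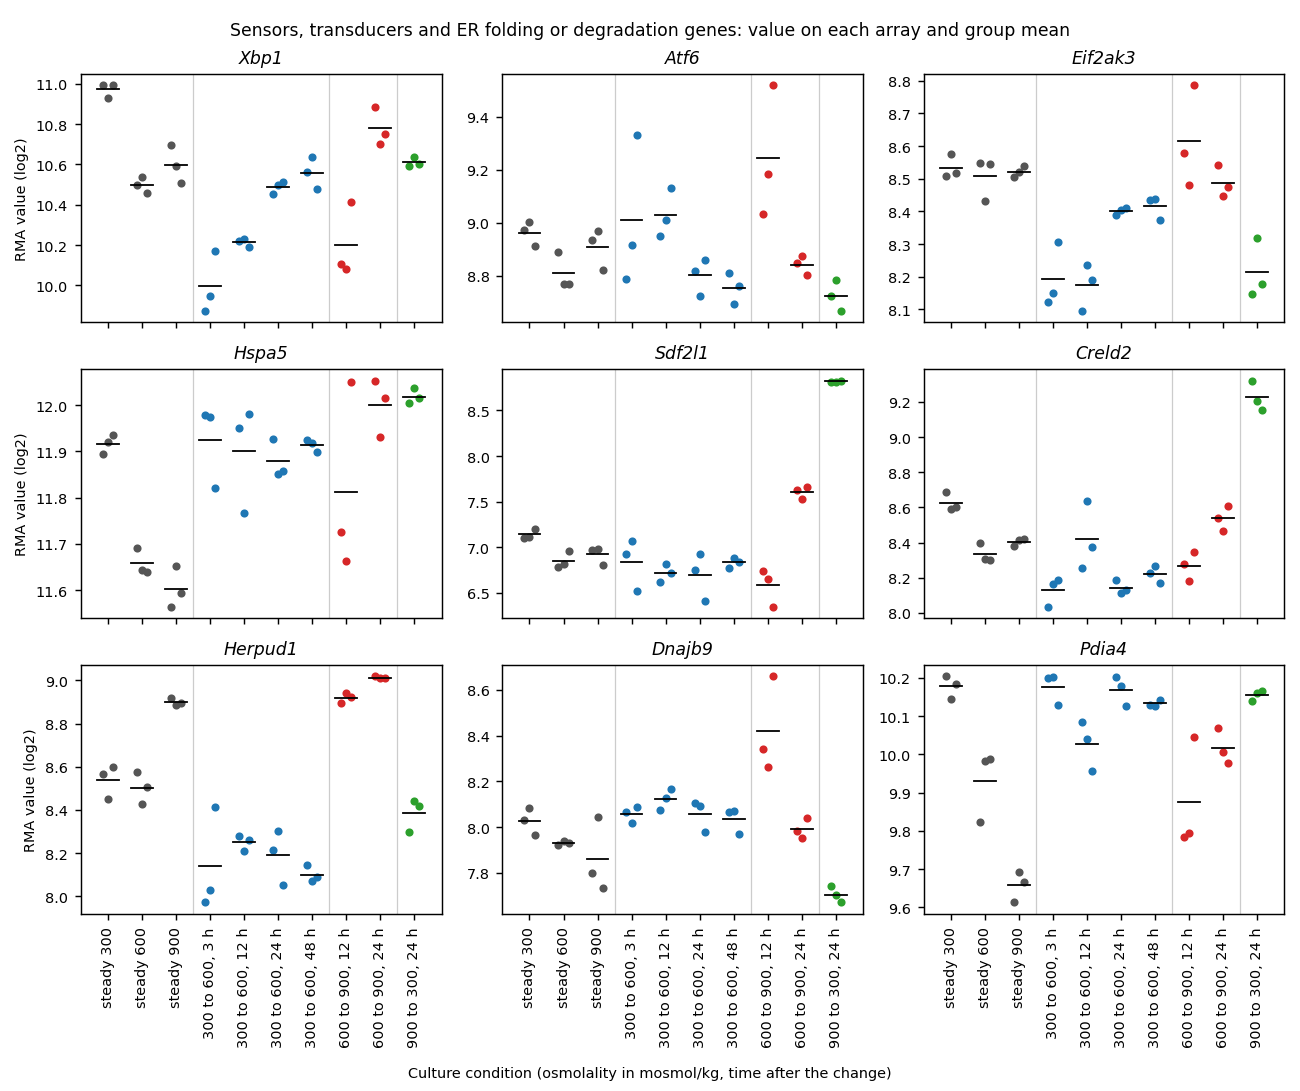
RMA value (log2) of Xbp1, Atf6, Eif2ak3 and 6 genes of ER folding and degradation on each of the 30 arrays (points) with the group mean (bar), over the 10 conditions in mosmol/kg. Xbp1 is lowest at 3 h of the lower step, and Sdf2l1 and Creld2 are highest after the return to 300 mosmol/kg.

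The upper step asks how cells kept at 600 mosmol/kg respond to 900. The ATF4 arm was mostly higher: 6 of 9 members at 12 h and 8 of 9 at 24 h, with Trib3, Psat1 and Ddit3 leading at 24 h. ER chaperone and degradation genes Hyou1, Herpud1 and Syvn1 were higher at both times, and Sdf2l1, Dnajb11 and Hspa5 at 24 h. The call of Syvn1 at 24 h was lost without replicate 1 of steady 600 (adjusted p = 0.0842). In all, 12 members were higher and 5 lower at 12 h (background 12.5% higher and 25.3% lower), and 15 higher and 1 lower at 24 h (11.2% and 14.7%). Both comparisons share the steady 600 arrays. Without replicate 9 at 12 h, 5 members of the ATF4 arm were higher and 0 lower. Leaving out any 1 array compared at 12 h gave 13 to 18 members called in all, instead of 17.

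Xbp1 measured 10.11, 10.08 and 10.41 at 12 h and 10.89, 10.70 and 10.75 at 24 h. The first 3 lay below and the last 3 above the steady 600 arrays. The change was -0.30 ± 0.08 at 12 h (limma adjusted p = 0.00534). It did not pass with cyclic loess (-0.12, adjusted p = 0.171) or with the fit limited to the arrays compared. At 24 h the change was 0.28 ± 0.08 (adjusted p = 0.0117), which did not pass without replicate 1 (adjusted p = 0.0809). Atf6 measured 9.03, 9.18 and, on replicate 9, which stood apart, 9.52 at 12 h. All lay above its steady 600 values of 8.89, 8.77 and 8.77. With replicate 9, the highest array, included, Atf6 was 1.35-fold higher (limma adjusted p = 0.00154). This was the only called change of Atf6 in the 16 comparisons of 2 groups.

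Atf4 measured 10.32, 10.22 and 10.17 at steady 600, 10.72, 10.76 and 10.88 at 12 h, and 10.74, 10.64 and 10.69 at 24 h. Both groups lay above the steady arrays, 1.46-fold at 12 h (limma adjusted p = 2.18e-07) and 1.37-fold at 24 h (adjusted p = 8.82e-06). Ddit3 measured 7.65, 7.80 and 7.52 at 12 h and 7.83, 7.72 and 7.50 at 24 h, all above its steady 600 values, with 1.73-fold and 1.76-fold rises. Ppp1r15a measured 7.99, 7.94 and 7.99 at steady 600, 9.15, 9.24 and 9.32 at 12 h, and 8.38, 8.42 and 8.50 at 24 h, without overlap, a 2.41-fold rise that had narrowed to 1.38-fold.

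Trib3 measured 5.81, 5.43 and 5.55 at steady 600, 6.50, 6.27 and 5.91 at 12 h, and 6.51, 6.52 and 6.43 at 24 h. It was 1.55-fold higher at 12 h and 1.86-fold higher at 24 h (limma adjusted p = 2.48e-06), without overlap at either time. Chac1, which degrades glutathione, was 1.49-fold higher at 12 h and 1.28-fold higher at 24 h, where its arrays overlapped those of steady 600. Asns passed at 24 h, with 9.50, 9.62 and 9.57 against 9.11, 9.12 and 9.15 at steady 600. At 12 h its replicate 9 measured 9.68 and the other two 9.16 and 9.17, and the change did not pass. Psat1 showed the same division at 12 h, with 9.93, 9.95 and 10.53, and its rise of 0.30 ± 0.11 did not pass without replicate 9 (0.10, adjusted p = 0.349). At 24 h Psat1 measured 10.56, 10.59 and 10.61 and was 1.68-fold higher. Atf3 was the ATF4-arm member that fell, by 0.28 ± 0.07 at 24 h.

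In the ATF6/XBP1 arm, 5 of 21 members were higher and 4 lower at 12 h (median change -0.07, all genes -0.03, with 12.5% of all genes higher and 25.3% lower). The higher ones were Ero1a (0.51 ± 0.09), Dnajb9 (0.49 ± 0.08), Hyou1 (0.49 ± 0.08), Syvn1 (0.42 ± 0.11) and Herpud1 (0.42 ± 0.09). Replicate 9 is included here. It was the highest array for Ero1a (9.14 against 8.87 and 8.89) and Dnajb9 (8.66 against 8.34 and 8.26), and the lowest for Syvn1. The lower ones, Manf, Pdia3, Sel1l and Calr, changed by -0.20 to -0.29, and none of the 21 was lower with quantile scaling, with cyclic loess or with the fit limited to the arrays compared. At 24 h, 6 were higher and 0 lower (median 0.15, all genes 0.01, with 11.2% of all genes higher and 14.7% lower). Scaling raised the count to 10 (quantile) or 12 (cyclic loess).

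Herpud1, which links misfolded protein to the degradation complex, measured 8.58, 8.43 and 8.51 at steady 600, 8.89, 8.94 and 8.92 at 12 h, and 9.02, 9.01 and 9.01 at 24 h. Its promoter is the one shown above with both a CARE and an ERSE-II. Sdf2l1 measured 6.78, 6.82 and 6.96 at steady 600, 6.75, 6.65 and 6.35 at 12 h, and 7.62, 7.53 and 7.66 at 24 h. It was below the steady arrays at 12 h without passing and 1.68-fold above them at 24 h (limma adjusted p = 1.10e-05). Hspa5 measured 11.73, 11.66 and 12.05 at 12 h, a change that passed with quantile scaling, cyclic loess and median centring but not as deposited (adjusted p = 0.134), and 12.05, 11.93 and 12.02 at 24 h, 1.27-fold above steady 600 (adjusted p = 0.00153).

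Of the other ATF4 target genes, 8 of 18 were higher and 5 lower at 12 h, and 7 higher and 2 lower at 24 h. Nupr1, a stress-induced chromatin protein, was higher by 1.93 ± 0.07 and 1.37 ± 0.07, and Slc7a11, the cystine transporter, by 0.84 ± 0.12 at 24 h. Of 17 aminoacyl-tRNA synthetase genes, 2 were higher and 7 lower at 12 h and 6 higher and 0 lower at 24 h, with Cars1 at 0.50 ± 0.06 and 0.40 ± 0.06. Macrophage and fibroblast markers were lower in the same comparisons, 7 of 8 and 6 of 8 at 12 h and 6 of 8 and 7 of 8 at 24 h, and 5 of 5 endothelial markers were lower at both times. Macrophage and fibroblast mean levels were 5.81 to 6.01 and 7.72 to 7.78 at 12 h, and at 24 h they were lower than at steady 600, with 5.78 to 5.84 and 7.37 to 7.47 against 6.95 to 6.98 and 8.15 to 8.24. Their part in these changes was not tested.

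The design allows the upper step to be set against the lower at equal times, each change taken from its own starting culture. A difference of this kind also holds any distance between the starting cultures. Xbp1, Hspa5 and Trib3 were called lower at steady 600 than at steady 300, and Psat1 was called higher. The difference between the changes was positive for every member called: 11 members at 12 h (background 6.18% positive and 7.25% negative) and 12 at 24 h (7.48% and 5.46%). In the ATF4 arm 6 of 9 were called at 12 h and 5 at 24 h, with median differences of 0.46 and 0.65 against -0.02 and 0.00 over all genes. In the ATF6/XBP1 arm 3 and 6 of 21 were called, with medians of 0.09 and 0.24. Both times share the steady 300 and steady 600 arrays, so they are not independent of each other.

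Trib3 changed by -0.76 at 12 h of the lower step and by 0.63 at 12 h of the upper, a difference of 1.39 ± 0.18 (limma adjusted p = 1.88e-06), and by -0.40 and 0.89 at 24 h, a difference of 1.30 ± 0.18. Its means were 6.34 at steady 300 and 5.60 at steady 600, against 5.94 and 6.49 at 24 h of the lower and upper steps. Psat1 changed by -0.55 and 0.75 at 24 h, a difference of 1.30 ± 0.15 (adjusted p = 2.99e-07), and Asns by -0.54 and 0.44, a difference of 0.98 ± 0.14. Phgdh followed at 24 h with -0.48 and 0.45. These 4 genes were each called lower after the lower step and higher after the upper at 24 h, though the lower-step call of Trib3 was lost without replicate 3 of steady 300 or without replicate 3 at 24 h (adjusted p up to 0.0794). Ddit3, by contrast, rose after both steps, and its differences of 0.19 ± 0.14 at 12 h and 0.37 ± 0.14 at 24 h did not pass.

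Xbp1 changed by -0.48 and 0.28 at 24 h, a difference of 0.77 ± 0.12 (limma adjusted p = 2.80e-05). Its means were 10.97 at steady 300 and 10.50 at steady 600, against 10.49 and 10.78 at 24 h of the lower and upper steps. In the ATF6/XBP1 arm the largest differences at 24 h were those of Sdf2l1 (1.20 ± 0.17), Herpud1 (0.86 ± 0.12) and Creld2 (0.69 ± 0.11). Creld2 was called lower after the lower step (-0.49) and changed by 0.20 after the upper, which did not pass. Hspa5, with means of 11.92 at steady 300 and 11.66 at steady 600, stood at 11.88 and 12.00 at 24 h of the lower and upper steps. It differed by 0.38 ± 0.11 (adjusted p = 0.0229), a call that was lost on leaving out any of 5 single arrays (highest adjusted p = 0.0609, without replicate 1 at 24 h of the upper step). At 12 h the calls of Ppp1r15a (0.42 ± 0.13) and Dnajb9 (0.39 ± 0.12) were likewise lost in 5 alternatives each, with adjusted p up to 0.0816 and 0.0835.

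Of 18 other ATF4 target genes 11 had a positive and 1 a negative difference at 24 h, with a median of 0.53; Mthfd2, a mitochondrial folate enzyme, differed by 1.15 ± 0.13. Of 17 aminoacyl-tRNA synthetase genes 5 differed, all positively. Of 8 macrophage markers 6 had a negative difference at 12 h, and 3 a positive and 2 a negative one at 24 h. Their part in the differences of the members was not tested.

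**Figure D4:**
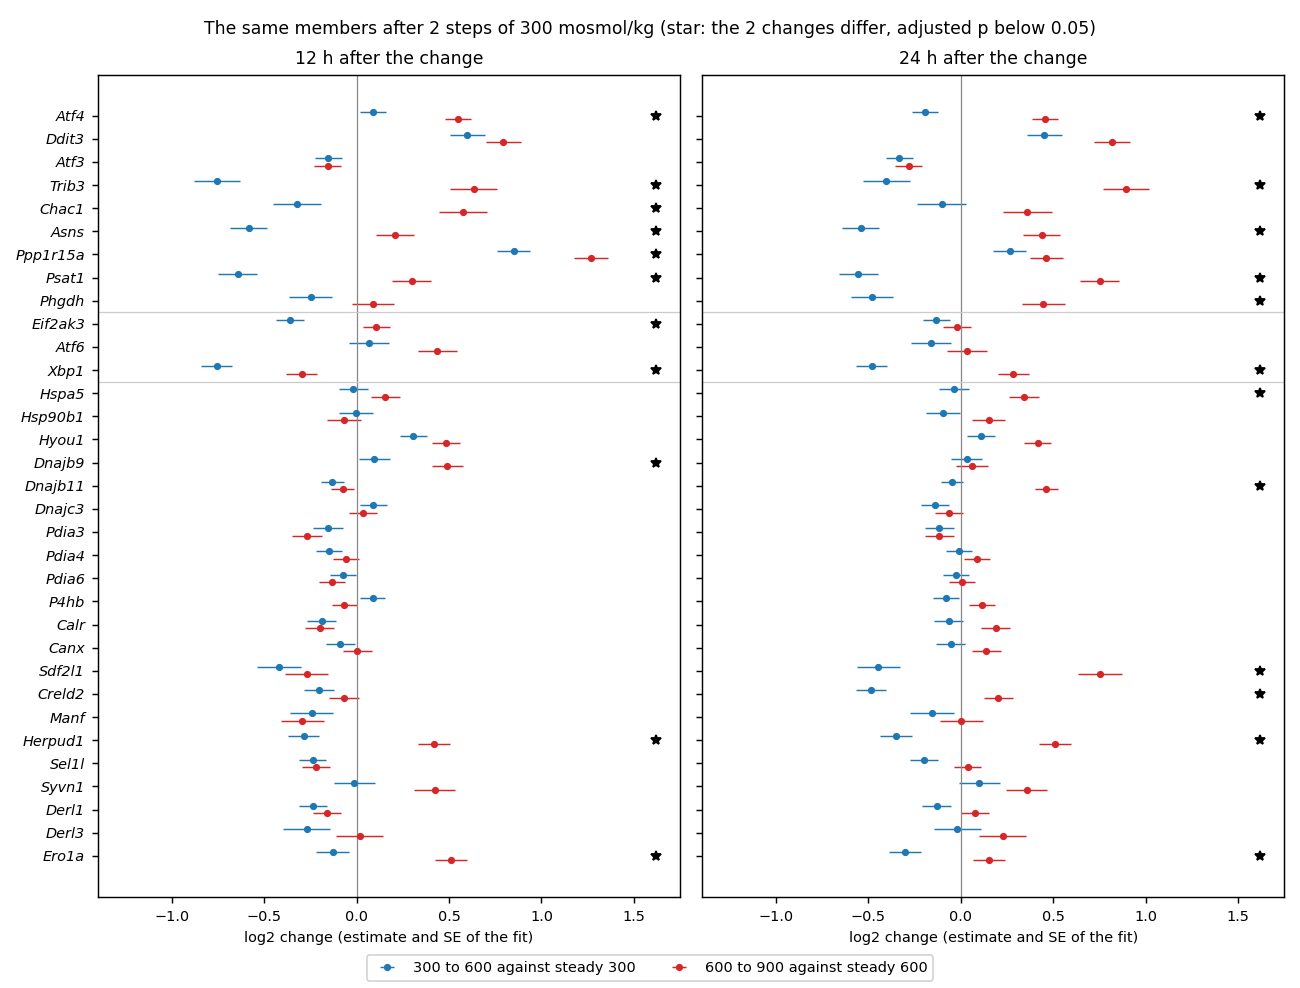
Log2 change with the standard error of the fit for the 33 members (rows) at 12 h (left) and 24 h (right) of the step from 300 to 600 mosmol/kg (blue, against steady 300) and of the step from 600 to 900 (red, against steady 600). A star marks genes whose 2 changes differ at an adjusted p below 0.05: 11 genes at 12 h and 12 at 24 h, with the red point to the right of the blue in each.

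The return from 900 to 300 mosmol/kg for 24 h asks how cells kept at high osmolality respond to a drop. Of the 21 ATF6/XBP1-arm members 10 rose, led by Sdf2l1, Manf, Creld2 and Pdia6, 3 fell (Herpud1, Syvn1 and Sel1l of the degradation machinery) and 8 did not pass. Ddit3 and Eif2ak3 fell. Trib3, Atf3 and Phgdh rose too. In all, 13 members were higher and 5 lower than at steady 900 (background 19.3% higher and 18.5% lower).

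Eif2ak3 measured 8.50, 8.52 and 8.54 at steady 900 and 8.15, 8.32 and 8.18 after the return, 1.24-fold lower without overlap (limma adjusted p = 0.00142). Xbp1 measured 10.59, 10.64 and 10.60 after the return, within its steady 900 range of 10.51 to 10.70.

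Ddit3 fell from 7.61, 7.71 and 7.53 to 7.08, 7.28 and 7.10, 1.38-fold and without overlap. Trib3 measured 5.88, 5.67 and 5.97 at steady 900 and 6.79, 6.54 and 6.81 after the return, 1.84-fold higher (limma adjusted p = 1.91e-06). Atf3 rose 1.66-fold, from 7.87, 7.80 and 7.76 to 8.49, 8.56 and 8.57, and Phgdh 1.56-fold, from 8.02, 7.89 and 7.90 to 8.69, 8.44 and 8.63. None of these groups overlapped. Atf4 changed by 0.06 ± 0.07 and did not pass.

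Sdf2l1 measured 6.97, 6.99 and 6.81 at steady 900 and 8.81, 8.82 and 8.83 after the return, a 3.72-fold rise (1.90 ± 0.12, limma adjusted p = 2.31e-13). The returned arrays lay above all others of the series. Creld2, an ER-resident protein that binds folding clients, measured 8.38, 8.41 and 8.42 and then 9.32, 9.20 and 9.16, 1.77-fold higher and again above every other array. Manf rose 1.78-fold, from 8.95, 8.94 and 9.01 to 9.81, 9.79 and 9.80.

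The isomerases Pdia6 and Pdia4 rose by 0.65 ± 0.07 and 0.50 ± 0.07, the chaperones Hsp90b1 and Hspa5 by 0.44 ± 0.09 and 0.42 ± 0.08, and the degradation gene Derl3, close to the dim end of the scale, by 0.48 ± 0.13. Herpud1 fell by 0.52 ± 0.09, from 8.92, 8.89 and 8.89 to 8.30, 8.44 and 8.42, and Syvn1, the ubiquitin ligase of the same complex, by 0.48 ± 0.11. The median change over the arm was 0.14, against -0.02 over all genes.

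Beyond the members, 12 of 16 ER translocation and signal peptidase genes were higher and 1 lower (Ssr4 0.65 ± 0.15), and 11 of 18 other ATF4 target genes were higher and 3 lower (Slc7a5 0.96 ± 0.11, Nupr1 -1.60 ± 0.07). Of 14 other ER folding genes 5 were higher, with the peroxiredoxin Prdx4 at 1.15 ± 0.11, and 2 lower. Principal cell markers were lower in the same comparison (9 of 11, mean level 7.82 to 7.88), and 4 of 8 macrophage markers were lower (5.69 to 5.85). Of 6 proximal tubule and loop of Henle markers 4 were lower and 0 higher, and of 5 endothelial markers 3 were higher and 0 lower. Fibroblast markers were divided, with 2 of 8 higher and 2 lower. Their part in these changes was not tested.

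Against the steady 300 cultures, the returned cells had 10 members higher and 9 lower (background 20.4% higher and 22.2% lower). Phgdh was 2.52-fold higher (1.33 ± 0.12, limma adjusted p = 6.44e-11), Psat1 1.95-fold and Sdf2l1 3.20-fold, with no overlap of the groups. Xbp1 was 1.29-fold lower and Sel1l, the scaffold of the degradation complex, 1.35-fold lower. Hspa5, Pdia4, Manf and Atf4 differed by 0.10, -0.02, -0.03 and -0.09, none of which passed.

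A further pair of comparisons set challenged cells against cultures kept at the final osmolality. At 48 h of the lower step, 10 members were higher and 4 lower than at steady 600 (background 9.47% higher and 12.5% lower). Psat1 was 2.00-fold lower (limma adjusted p = 1.34e-08), Phgdh 1.59-fold and Asns 1.36-fold lower, while 8 of 21 ATF6/XBP1-arm members were higher by 0.20 to 0.37, with Manf at 0.37, a call lost without replicate 1 of steady 600 or replicate 2 at 48 h (adjusted p up to 0.113). At 24 h of the upper step, 11 members were higher and 0 lower than at steady 900 (9.47% and 8.83%), led by Sdf2l1 (0.68 ± 0.12), Trib3 (0.65 ± 0.13) and Atf4 (0.47 ± 0.07). Ddit3 and Psat1 were close to their steady 900 values, with differences of 0.07 and 0.02 that did not pass. Leaving out replicate 2 at 48 h brought the first count from 14 to 9, and leaving out replicate 2 of steady 900, or replicate 2 or 9 of the challenged group, brought the second from 11 to 7.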

How the data were processed

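The deposited table holds log2 values made by the authors with RMA, per the submitters' processing notes, for 29170 probe sets on 30 arrays. This method corrects background, brings arrays to a common scale and combines the probes of a set, and its version is not given in the sources used here. RMA values flatten at both ends of the scale, which can understate changes of bright and dim genes. Names came from the platform annotation: 15310 had 1 symbol and 323 several, and the latter were not used. The brightest such set on average stood for each gene (14506 genes; Psat1 was the only member with more than 1).

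Groups came from the sample titles. One mean per group was fitted over all 30 arrays with limma 3.58.1 (lmFit, eBayes) in R 4.3.3, and p-values were adjusted over the 14506 genes (Benjamini-Hochberg, 0.05). The scripts were checked on simulated data. With 3 arrays per group, their number limits the precision. Members, lists and tests were chosen with earlier results of these data known. Any measured member could be named; in each comparison values were given for called members with the largest change, up to 6 in the ATF4 arm and 8 in the ATF6/XBP1 arm, for called sensors and transducers, and for up to 4 called genes of another list. Atf4, Ddit3, Trib3, Hspa5 and Xbp1 were followed throughout. Alternatives covered scaling (quantile, cyclic loess, median centring), a filter on dim genes, averaging of probe sets, trend and robust eBayes, the compared arrays alone, a replicate block, a 1.5-fold minimum and leaving out each array. The lists of other pathway genes and of markers were not rerun under these alternatives. No genome sequence beyond the RefSeq promoters was used.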

Additional observations from a re-analysis of the deposited data

Results flagged for a closer look

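The changes after the upper step (600 to 900 mosmol/kg) and after the lower step (300 to 600) were set against each other in 1 contrast per time, and the differences below passed limma's test of the difference itself (upper minus lower, log2, n = 3 arrays in each of 4 groups). Each difference also holds any distance between the steady 300 and steady 600 cultures. At 12 h this held in the ATF4 arm for Trib3 (1.39), Psat1 (0.94), Chac1 (0.90), Asns (0.79), Atf4 (0.46) and Ppp1r15a (0.42). The sizes for Psat1 and Asns include replicate 9 at 12 h of the upper step. That array lay above its partners, with 10.53 against 9.93 and 9.95 for Psat1 and 9.68 against 9.16 and 9.17 for Asns. It held for the sensor and transducer Eif2ak3 (0.47) and Xbp1 (0.46). In the ATF6/XBP1 arm it held for Herpud1 (0.70), Ero1a (0.64) and Dnajb9 (0.39).

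At 24 h it held for Psat1 (1.30), Trib3 (1.30), Asns (0.98), Phgdh (0.93) and Atf4 (0.65), for Xbp1 (0.77), and for Sdf2l1 (1.20), Herpud1 (0.86), Creld2 (0.69), Dnajb11 (0.51), Ero1a (0.45) and Hspa5 (0.38). Herpud1, Ero1a, Xbp1, Atf4, Trib3, Asns and Psat1 appear at both times, which share the steady 300 and steady 600 arrays.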

How the results depend on the processing

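Under the alternatives, 3420 of 3656 recomputed values of single genes kept direction and side of the threshold, 188 lost and 14 gained a call, and 34 changed sign, 0 of them called. The moderated F test called 33 members in every setting. A 1.5-fold minimum left 2, 5 and 2 members in the steady comparisons (600 and 900 against 300, 900 against 600), 5, 5, 0 and 1 at 3, 12, 24 and 48 h of the lower step, 3 and 4 at 12 and 24 h of the upper step, 7 after the return, 4, 1 and 0 between neighbouring times, 2 at 48 h against steady 600, 2 at 24 h of the upper step against steady 900, 5 for the returned cells against steady 300 and 6 for the difference of the steps at 12 h. With the compared arrays alone, 11 instead of 17 members were called at 12 h of the upper step and 5 instead of 10 at 12 h against 3 h. Leaving out 1 array gave 10 to 13 instead of 16 members at 600 against 300 mosmol/kg, 4 to 6 instead of 8 at 24 h against 12 h, 0 to 1 at 48 h against 24 h, 9 to 12 instead of 14 at 48 h against steady 600 and 7 to 11 at 24 h of the upper step against steady 900. Fewer arrays were then fitted.

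Sign changes of uncalled values were small. Hspa5 at 3 h was -0.015 with median centring and -0.019 to 0.060 on leaving out 1 array, but it was called higher with cyclic loess. At 12 h it was 0.010 with quantile scaling and with cyclic loess and -0.058 to 0.049 without 1 array, and at 48 h 0.026, 0.0067 and 0.026 with quantile, cyclic loess and median centring and -0.014 to 0.0062 without 1 array. Between 3 and 12 h it ranged from -0.076 to 0.042 without 1 array, and between 12 and 24 h from -0.087 to 0.020, with 0.016 under median centring. Atf4 at 900 against 600 was 0.032 with cyclic loess, 0.0016 with median centring and -0.054 to 0.023 without 1 array. Xbp1 after the return was -0.034 with quantile scaling and with cyclic loess and -0.034 to 0.061 without 1 array. Ddit3 between 3 and 12 h was -0.037 with quantile scaling, -0.049 with cyclic loess and -0.046 to 0.110 without 1 array, and at 24 h of the upper step against steady 900 it was -0.0068 to 0.160. Trib3 between 3 and 12 h was -0.128 to 0.077 without 1 array. The cause of these shifts was not tested.

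Scaling moved the share of called genes that were lower by over 10 percentage points in part: 70.9% at 3 h became 58.3% (quantile) and 59.1% (cyclic loess), 67% at 12 h of the upper step became 54.3%, 55.8% and 55.1% (median centring), 56.7% at its 24 h became 46% (median centring), 43.6% at 12 h against 3 h became 55.1% (cyclic loess), and 54% for the difference at 12 h became 43.9%, 39.4% and 37.5%. Same-numbered arrays did not deviate together in every pair of any comparison, so the numbers were not taken as pairing. With the number as a replicate block, Xbp1 after the return was -0.019, and the counts of members called went from 17 to 14 at 12 h of the upper step and from 13 to 12 at 12 h of the lower, with no count moved by 1.5 times.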
